A study of Gallus gallus with 6 samples.

Results

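The 4 genes described here were PTGS2, the inducible cyclooxygenase, HPGDS, the haematopoietic prostaglandin D synthase, LTA4H, the leukotriene A4 hydrolase, and ANXA1, annexin A1. They were chosen by name for their roles in the pathway and were found by symbol among 2253 named genes of a spotted chicken cDNA array. PTGS2 and HPGDS had 1 clone each, ANXA1 had 2 and LTA4H had 3, and each clone was spotted 3 times.

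Prostaglandins and leukotrienes are signalling lipids made from arachidonic acid, which phospholipases release from membranes. Cyclooxygenases turn arachidonic acid into the precursor of all prostaglandins, and dedicated synthases finish each prostaglandin, while the lipoxygenase branch makes leukotriene A4, which a hydrolase converts to leukotriene B4, a chemoattractant of granulocytes. In macrophages that meet bacteria the inducible cyclooxygenase is a classical early response gene, and annexin A1 is known as a restraint on phospholipase activity and on granulocyte recruitment.

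The cells were macrophages grown from the blood leukocytes of chickens and given either whole XL10 E. coli, a laboratory strain, or LPS from S. typh, a glycolipid of the outer membrane. For the later times cells were freed of the stimulus at 2 h. Of 6 arrays, 5 compared a pair of RNA samples. Of these, the early E. coli array set 1 h of E. coli against no stimulus, the early LPS array set 1 h of LPS against no stimulus, and the E. coli time array set E. coli at 4 h against 2 h. Both stimuli were set side by side on a 4 h array and an 8 h array, with E. coli and LPS cells of the same age on each. The sixth gave the brightness of LPS 2 h alone. Unstimulated cells are shared by both early arrays as a condition, and E. coli at 4 h stands on 2 arrays.

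Values are log2 ratios as deposited, centred on the median of each array, with base 2 assumed. No comparison had a second array, so nothing was tested, and every ± gives the SD among a gene's spots within an array, which is technical spread. Each condition is whole-culture RNA, in which fewer cells of a type and less RNA per cell cannot be told apart. A gene was counted as past 2-fold when its centred ratio was at least 1 in size.

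Neither the numerator of the ratios nor the dyes were stated, which leaves their direction unsettled, and signs are printed as the table has them. By the channel labels, E. coli stood in channel 1 on the early E. coli array, whose title names the control first, while LPS stood in channel 2 on the early LPS array. Channel 1 over channel 2 would thus give a gene raised by both stimuli a positive ratio on the first and a negative ratio on the second. IL1B, a cytokine that LPS is known to induce in macrophages, had 3.38 ± 1.60 on the early E. coli array and -5.10 ± 1.57 on the early LPS array over 6 spots each. On the E. coli time array the 2 h sample stood in channel 1, and on the 4 h and 8 h arrays E. coli stood in channel 1. No value fixed the direction of these last arrays.

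Of 19 listed macrophage markers 13 were measured, with LPS 2 h intensities from 0.40 to 5.26, in units that are not stated. Among markers of other blood cells, 2 of 11 T cell, 2 of 10 thrombocyte and 3 of 8 heterophil markers were measured, with intensities from 0.49 to 5.40, from 0.83 to 1.33 and from 0.25 to 4.17. By their own symbols 2 of 10 erythroid and none of 7 B cell markers were measured. A synonym added HBA1 for HBAA, ALAS1 for ALAS2 and SH2D6 for BLNK, of which ALAS1, a housekeeping enzyme of haem synthesis, marks no cell type. None of 5 mast cell or 6 stromal markers was measured. Clones differ in how brightly they label, so a brightness or its rank describes a clone and does not compare RNA levels of genes, and which cells were present was not tested.

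PTGS2 had the largest ratio among the 4 genes, on the early LPS array. Its 3 spots there read -4.47, -6.41 and -5.45, for a mean of -5.44 ± 0.97. All 3 were far from 0, and the mean equals a 43.4-fold ratio if the base is 2. The gene was the fourth lowest of 2251, and 0.178% of genes had a ratio at least as large in size. It was the 1 gene of the 4 past 2-fold on this array, where 11.2% of all genes were past it, 3.78% positive and 7.37% negative. Removal of the trend of the ratio with LPS 2 h brightness left -5.25. That brightness, used for every trend here, comes from a separate array of LPS-treated cells and not from the ratio array itself. Whether the trend reflects labelling or RNA differences was not tested. If channel 1 was the numerator, PTGS2 RNA was more abundant after 1 h of LPS than in unstimulated cells.

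After 1 h of E. coli the ratio of PTGS2 was much smaller in size. Its spots read 1.40, 0.37 and 0.61, with a mean of 0.79 ± 0.54 and all of 1 sign. None of the 4 genes was past 2-fold by its mean on this array, against 16.3% of all genes, 14.7% positive and 1.51% negative. Leaving out 1 spot moved the PTGS2 value between 0.49 and 1.01. The spots of PTGS2 did not overlap in size between the arrays, since the largest on the early E. coli array was 1.40 and the one nearest 0 on the early LPS array was -4.47. These are repeat spots of 1 array each, where the median SD of a clone's 3 spots was 0.19 on both arrays. How many of all genes had spots that did not overlap in this way was not counted. The difference in size between the stimuli was not tested, since each had 1 array. IL1B, given above, was also smaller in size on the early E. coli array than on the early LPS array.

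**Figure D1:**
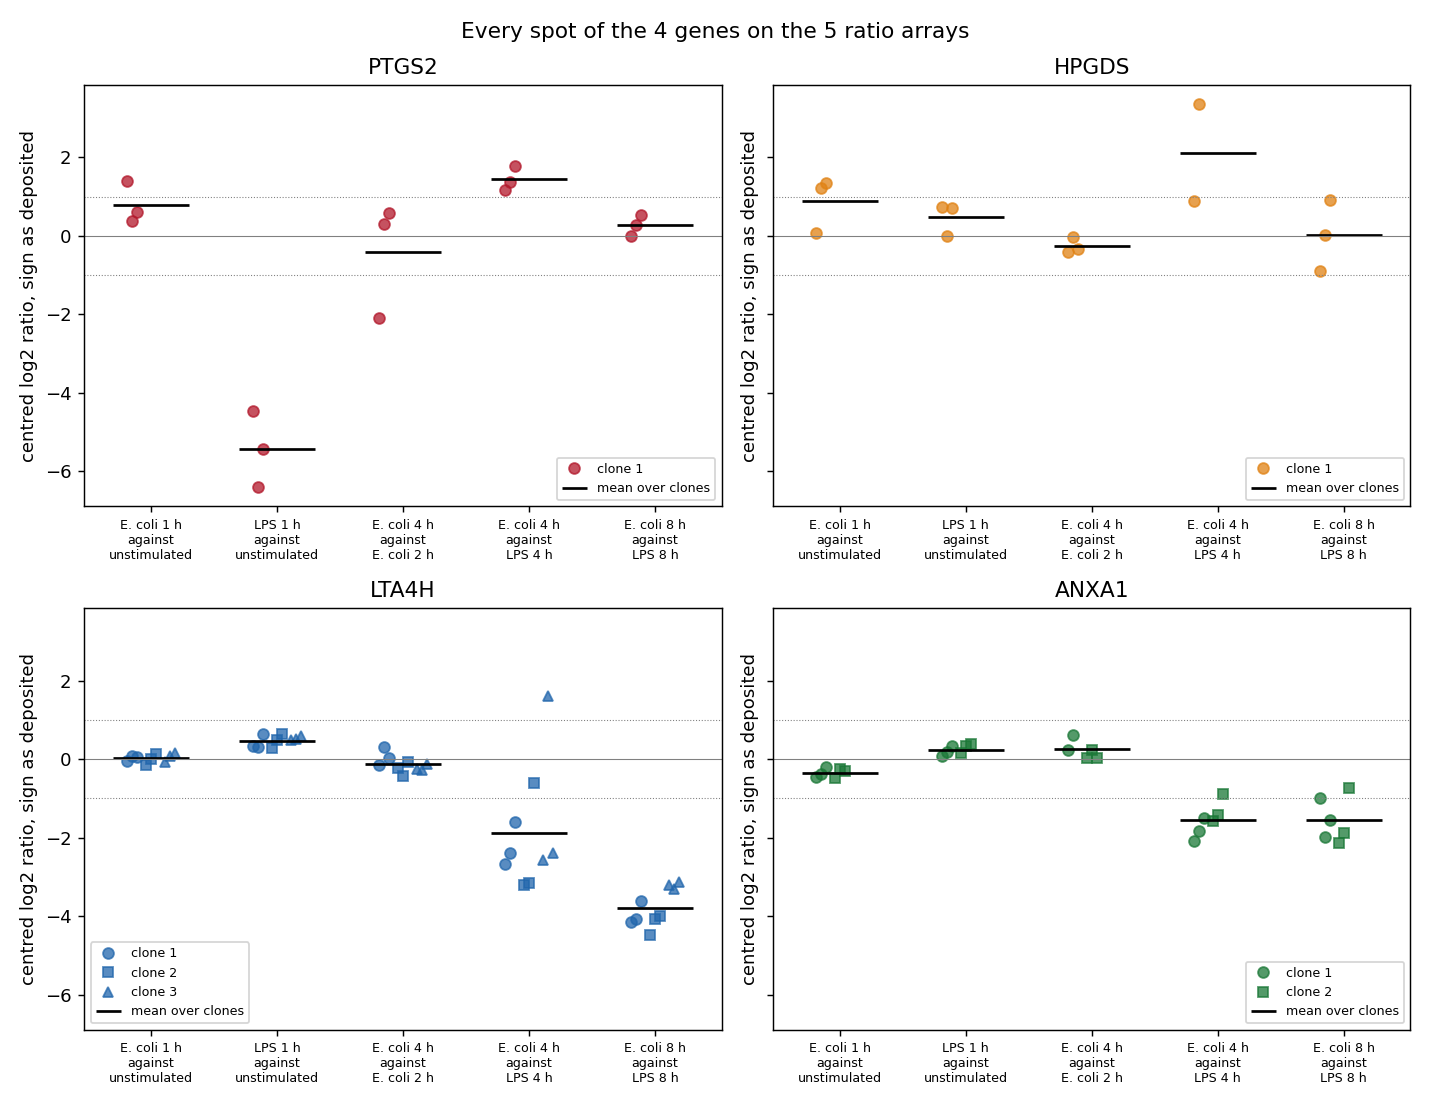
Centred log2 ratio (vertical axis, sign as deposited) of every spot of PTGS2, HPGDS, LTA4H and ANXA1 on the 5 ratio arrays (horizontal axis), with 1 symbol per clone, bars for the mean over clones and dotted lines at 2-fold. PTGS2 stands apart on the early LPS array at -5.44, and LTA4H on the 8 h array at -3.79.

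Later comparisons gave smaller PTGS2 values. On the E. coli time array the spots read -2.09, 0.30 and 0.57, so the spots disagreed in sign and the mean of -0.41 ± 1.46 carries no direction. Between E. coli 4 h and LPS 4 h the spots read 1.17, 1.37 and 1.78, a mean of 1.44 ± 0.31 with every spot past 2-fold. At 8 h they read 0.0039, 0.29 and 0.53, a mean of 0.27 ± 0.26. With channel 1 as the numerator, PTGS2 would be higher in E. coli 4 h than in LPS 4 h. On the 4 h array the brightness trend ran against this sign: its removal gave 2.04, and bright genes tended to negative ratios there.

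The brightness of PTGS2 at LPS 2 h rested on 1 spot. The 3 spots read 9.96, 1.91 and 1.83 in intensity units that are not stated, with a mean of 4.56 ± 4.67, and without the brightest spot it was 1.87. Spots of PTGS2 were all above the median of 0.509 over named genes.

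HPGDS, which turns the cyclooxygenase product into prostaglandin D2, had a dim clone, and no array gave it a ratio whose spots were close together and past 2-fold. At LPS 2 h its spots read 0.182, 0.141 and 0.283, with 21.8% of named genes dimmer. On the early E. coli array the spots were 0.0836, 1.21 and 1.36, with a mean of 0.88 ± 0.70. This array gave dim spots positive ratios, with a median of 0.83 in the dimmest 10% of spots against -0.24 in the brightest 10%, and removal of the trend left HPGDS at 0.49. On the early LPS array it had 0.48 ± 0.42, with spots from -0.013 to 0.73.

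On the E. coli time array HPGDS had -0.26 ± 0.19 with all 3 spots negative. None of the 4 genes was past 2-fold there, against 23.1% of all genes, 14.8% positive and 8.3% negative, and the HPGDS value became 0.24 without centring. Of its 3 spots on the 4 h array 2 were read, at 0.88 and 3.36, for a mean of 2.12 ± 1.75. The dimmest 10% of spots had a median of 1.18 on this array, and removal of the trend left HPGDS at 1.42. Leaving out either spot gives the other, and 1 of these is within 2-fold. At 8 h the spots read -0.90, 0.031 and 0.91 around a mean of 0.015 ± 0.90. PTGS2 and HPGDS act in sequence in prostaglandin D2 synthesis, and their values were -5.44 and 0.48 on the early LPS array, and 1.44 and 2.12 on the 4 h array.

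LTA4H, a zinc enzyme that makes leukotriene B4, was within 2-fold on both early arrays and had a large ratio at 8 h. On the 8 h array its 9 spots ran from -4.48 through a median of -4.00 to -3.14, with a mean of -3.79 ± 0.48. Every spot of every clone was past 8-fold, and no other of the 4 genes had a ratio of this size there. The 3 clones had -3.95 ± 0.28, -4.19 ± 0.26 and -3.22 ± 0.09, so the third differed from the others by more than the spread of its spots. LTA4H was the tenth lowest of 2220 genes, and 1.08% of genes had a ratio at least as large in size. If the base is 2 the mean equals a 13.8-fold ratio, and with channel 1 as the numerator the RNA was less abundant in E. coli 8 h than in LPS 8 h.

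The 9 spots of LTA4H on the 4 h array ran from -3.21 through a median of -2.40 to 1.62, with a mean of -1.89 ± 1.54. Of these, 8 were negative and 1 was positive, a spot of the third clone whose other spots read -2.56 and -2.40. Leaving out 1 spot gave -2.35 to -1.65. Bright genes had negative ratios on this array, with a median of -0.76 in the brightest 10% of spots, and LTA4H was 1 of the 20 brightest named genes at 7.55 ± 2.48. Removal of that trend left -1.14 at 4 h and -3.33 at 8 h, past 2-fold on both.

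On the other ratio arrays LTA4H was within 2-fold. For the early E. coli array the 9 spots ran from -0.15 to 0.16 and had a mean of 0.027 ± 0.10. On the early LPS array they ran from 0.30 to 0.65 with a mean of 0.47 ± 0.14, all positive, the opposite sign to PTGS2 and above 85.8% of genes. On the E. coli time array, which shares the E. coli 4 h condition with the 4 h array, they ran from -0.42 to 0.31 with a mean of -0.13 ± 0.21. The repeat spots were tight enough on these arrays to place LTA4H within 2-fold in each of them, with or without centring.

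**Figure D2:**
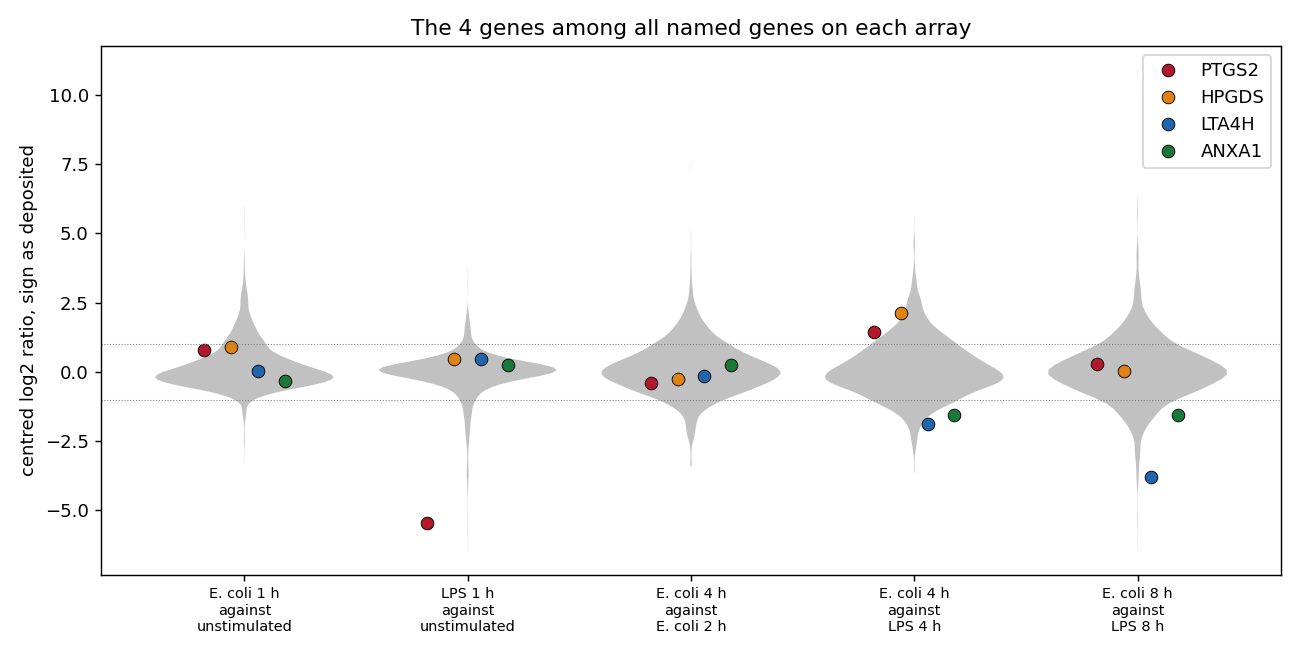
Centred log2 ratio (vertical axis, sign as deposited) of all named genes on each ratio array, drawn as grey distributions whose width shows the density of genes, with the 4 genes as points and dotted lines at 2-fold. PTGS2 lies in the lower tail of the early LPS array and LTA4H in that of the 8 h array, while all 4 lie within 2-fold on the early E. coli array and the E. coli time array.

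ANXA1, a calcium-dependent phospholipid-binding protein that dampens inflammation, had the same sign as LTA4H on the 4 h and 8 h arrays at a smaller size. On the 4 h array its 6 spots ran from -2.08 through a median of -1.54 to -0.89, with a mean of -1.55 ± 0.40. On the 8 h array they ran from -2.14 through a median of -1.71 to -0.73, with a mean of -1.55 ± 0.57. All spots were negative on both arrays, and both clones showed it, at -1.80 ± 0.29 and -1.29 ± 0.35 at 4 h and at -1.51 ± 0.50 and -1.58 ± 0.75 at 8 h. The clones differed in brightness at LPS 2 h, with 3.64 ± 0.31 for one and 1.04 ± 0.06 for the other. Removal of the brightness trend left -1.05 on the 4 h array, just past 2-fold, and -1.26 on the 8 h array.

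In the early comparisons ANXA1 stayed within 2-fold. It had -0.35 ± 0.11 on the early E. coli array and 0.24 ± 0.12 on the early LPS array, with all 6 spots of 1 sign on each. On the E. coli time array, with 5 spots read, it had 0.26 ± 0.24. A ratio at least as large as that on the early E. coli array was found for 55.4% of genes.

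On the 4 h array all 4 genes were past 2-fold, 2 positive (PTGS2 and HPGDS) and 2 negative (LTA4H and ANXA1), where 29.4% of all genes were past it in either direction, 17.7% positive and 11.7% negative. PTGS2 and HPGDS thus had the opposite sign to LTA4H and ANXA1 there, whichever channel was the numerator. The HPGDS mean rested on 2 spots, at 0.88 and 3.36, of a dim clone, and dim spots tended to positive ratios on this array. The positive sign was not particular to prostaglandin enzymes. IL1B, IL8L1, CCL20 and IL6 had 3.19 ± 1.34, 3.27 ± 1.00, 3.53 ± 1.26 and 1.78 ± 0.24 on the 4 h array. Of the 4 genes 2 were past 2-fold, both negative, on the 8 h array, where 27.9% of all genes were past it, 15% positive and 12.9% negative. With 4 genes these counts are a description of the members.

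**Figure D3:**
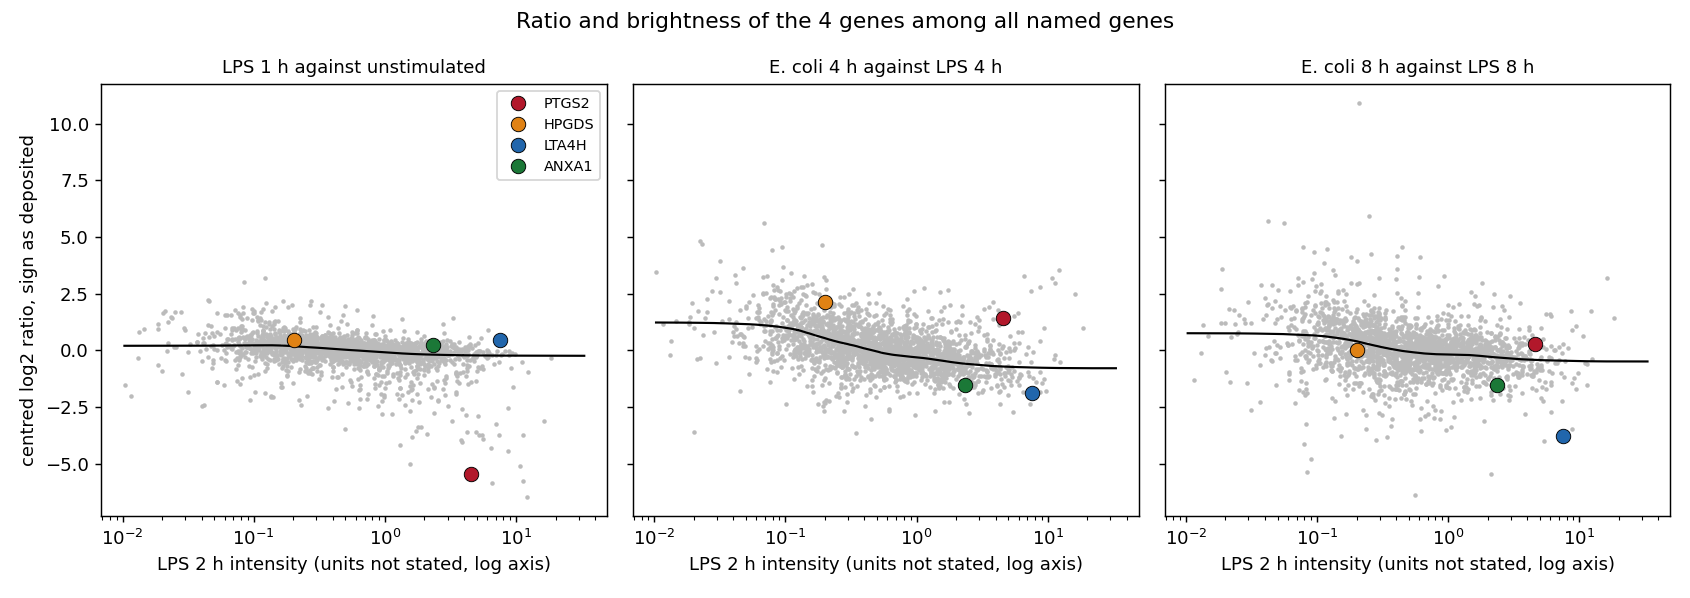
Centred log2 ratio (vertical axis, sign as deposited) against LPS 2 h intensity (horizontal log axis, units not stated; genes at or below 0.01 are not drawn) for all named genes in grey, the 4 genes in colour and the fitted trend as a line, on the early LPS, 4 h and 8 h arrays. LTA4H, at an intensity of 7.55, lies far below the trend on the 8 h array, and PTGS2 far below it on the early LPS array and above it on the 4 h array.

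Many macrophage markers shared the negative sign of LTA4H and ANXA1 on the later arrays. Of the 13 markers measured 9 were past 2-fold and negative on the 4 h array, 6 of them with spots of 1 sign, where 11.7% of all genes were past 2-fold and negative. The list median there was -1.12 and the range -2.35 to 0.32. At 8 h 9 were again past 2-fold and negative, 7 of them with spots of 1 sign, where 12.9% of all genes were, with a median of -1.18 and a range from -2.26 to 0.80. These marker clones were bright, with a median at percentile 88.5 of the intensities. Shares of all genes were not computed with the brightness trend removed or with spots of 1 sign required. With the trend removed, 4 markers stayed past 2-fold and negative at 4 h, with a list median of -0.76 and a lowest value of -1.64. At 8 h 7 did so, with a median of -1.001 and a lowest value of -1.94, while 1 marker, LYZ, was past 2-fold and positive at 1.08. ANXA1 lay inside these ranges on both arrays. LTA4H lay inside the range at 4 h and below the lowest marker at 8 h, with and without the trend. Of the 3 heterophil markers, S100A12, a calcium-binding protein, had -1.34 ± 0.33 at 4 h and -2.18 ± 0.11 at 8 h with all spots negative, and -0.69 and -1.82 with the trend removed. The other two were within 2-fold, with -0.48 ± 0.26 and -0.51 ± 0.56 for CSF3R, the receptor of a granulocyte growth factor, and -0.95 ± 0.29 and 0.90 ± 0.29 for AVD, which encodes avidin. The part of these markers in the result was not tested.

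The clone annotated as CD3D, a chain of the T cell receptor complex, had values close to those of LTA4H on every ratio array. It had, on the 8 h array, -4.01 ± 0.76 over 3 spots, against -3.79 for LTA4H, and on the 4 h array it had -2.70 ± 0.75 over 2 spots. In the order early E. coli, early LPS and E. coli time array it had 0.09, 0.55 and -0.21. The Euclidean distance over the 5 ratios was 0.85 between CD3D and the mean of the LTA4H clones. Single LTA4H clones were 0.42, 0.60 and 0.96 from that mean, which they themselves form, and 0.39, 1.36 and 1.55 from each other. Among 4396 clones with at least 2 spots read on each ratio array, named or not, the CD3D clone was the third nearest to the LTA4H mean, after 2 of the LTA4H clones and before the third. Clones annotated as IDH3B and HN1 came next, at 0.995 and 1.07, little farther than the third LTA4H clone. The other T cell marker measured, CD28, had -0.49 ± 1.54 at 8 h and 2.10 ± 2.49 at 4 h. Whether the annotation of the CD3D clone is right, whether the clones share sequence, and the part of T cells in the LTA4H ratio, was not tested.

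**Figure D4:**
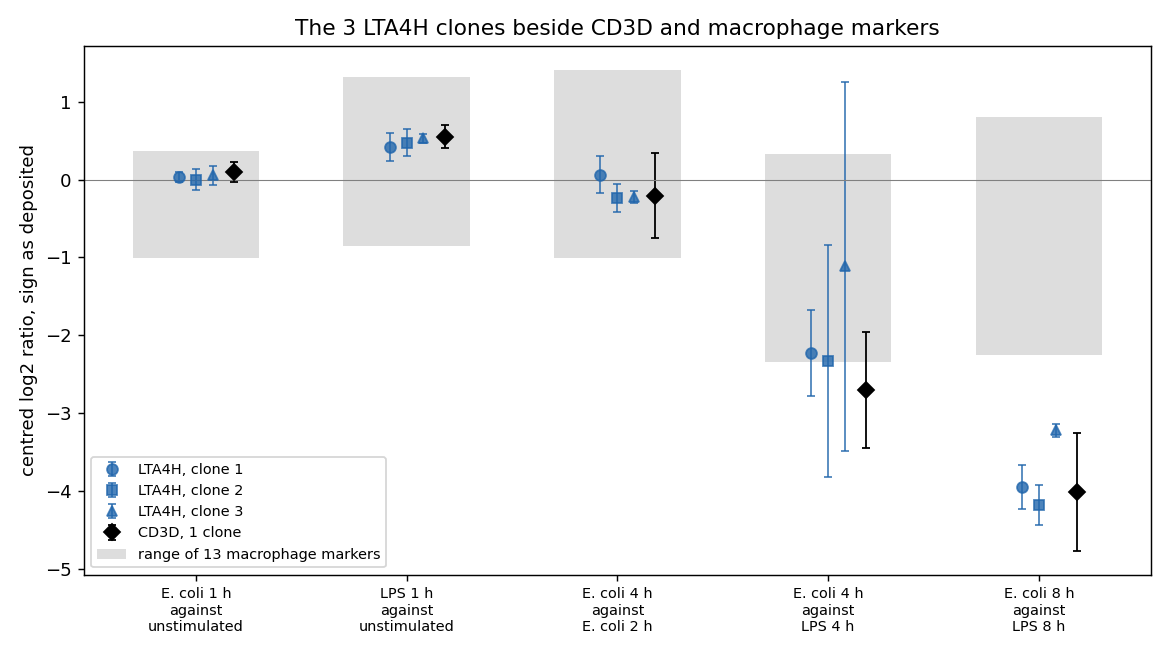
Mean centred log2 ratio (vertical axis, sign as deposited) of the 3 LTA4H clones and of the clone annotated as CD3D on the 5 ratio arrays (horizontal axis), with the SD over the spots as error bars and the range of 13 macrophage markers as grey bars. CD3D at -4.01 stands among the LTA4H clones on the 8 h array, below the lowest macrophage marker at -2.26.

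Likeness over the 5 ratio arrays was measured as the Euclidean distance between centred ratios, among genes with at least 3 spots read on each array. Nearest to PTGS2 were ACOD1, the itaconate-forming enzyme, at 1.60, RHBDD1, a rhomboid protease, at 1.86 and SNX10, a sorting nexin, at 1.91, where the median distance over 1592 genes was 5.91. These 3 had -4.32, -5.04 and -3.60 on the early LPS array and 1.61, 2.49 and 1.18 on the early E. coli array, the last values all above the 0.79 of PTGS2. Nearest to LTA4H were SLC38A10, a putative amino acid transporter, at 1.24, EVL, an actin regulator, at 1.72 and PGD, an enzyme of the pentose phosphate pathway, at 1.77, where the median was 4.35. CD3D was nearer, with 2 spots on the 4 h array, and was thus not a candidate. Single clones of IDH3B and HN1, given above, were also nearer than SLC38A10.

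ANXA1 had closer neighbours than the others. The ribosomal protein RPS16 was at 0.41, the GTPase RAC1 at 0.46 and the scaffold protein SDCBP at 0.46, where the median was 2.45. HPGDS, itself with 2 spots on the 4 h array, was nearest to ENTPD8L1 at 0.78, the transcriptional coactivator SUB1 at 0.89 and SRP19, part of the signal recognition particle, at 0.93, where the median was 2.83. These 3 neighbours were dim like HPGDS, at intensity percentiles of 20.6, 21.1 and 24.2 beside 21.8.

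A list of 130 symbols of the wider eicosanoid pathway held these 4 genes and 25 others that were measured. No prostanoid receptor of 10 listed was among them, and of 10 listed receptors for leukotrienes and resolvins only CMKLR1 was. Past 2-fold on the early E. coli array were 3 of 25, all positive, and on the early LPS array 6, with 4 positive and 2 negative. On the E. coli time array 8 were past it, all positive. The 4 h array had 8 with 4 of each sign, and the 8 h array 12 with 6 of each sign. These counts are 12%, 24%, 32%, 32% and 48% of the 25, beside 16.3%, 11.2%, 23.1%, 29.4% and 27.9% of all genes. At 8 h 8 of the 12 had spots of 1 sign, among them CBR4 and AKR1B10 with 1 spot read each. With the brightness trend removed 9 of the 25 were past 2-fold at 8 h. Shares of all genes were not computed for either setting. List medians were 0.06, 0.17, 0.25, -0.42 and -0.30, beside -0.0065, 0.05, 0.04, 0.0029 and 0.0064 over all genes.

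Among genes that handle arachidonic acid and other fatty acids, ACSL1, which activates long-chain fatty acids with coenzyme A, resembled PTGS2 at 1 h. On the early LPS array its 12 spots ran from -4.21 to -3.30 with a mean of -3.62 ± 0.25. On the early E. coli array they ran from 0.95 to 2.96 with a mean of 1.60 ± 0.66, larger than that of PTGS2. ACSL1 had, on the 4 h array, -1.32 ± 0.65 with 11 of 12 spots negative, the opposite sign to PTGS2, and on the 8 h array -1.29 ± 1.79. Its clones were bright, and with the brightness trend removed both values were within 2-fold, at -0.63 and -0.90.

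The phospholipases differed from one another. PLA2G4A, the cytosolic enzyme that releases arachidonic acid, was within 2-fold by its mean on all 5 arrays. The means ran from -0.42 ± 0.74 on the 8 h array to 0.06 ± 0.11 on the early LPS array. On the 4 h array its spots disagreed, from -1.40 to 1.95, so the mean of -0.19 ± 1.86 carries no direction there. PLA2G6, the calcium-independent enzyme, had 1.59 ± 1.24 at 4 h and 1.37 ± 0.82 at 8 h with all spots positive. PLA2G15, the lysosomal enzyme, had positive ratios on all 5 arrays, from 0.69 ± 0.52 on the early E. coli array to 2.28 ± 1.73 on the E. coli time array, on a dim clone with an intensity of 0.12 ± 0.03. Its early LPS mean was 2.10 ± 2.73, with spots that ran from 0.10 to 5.21. The E. coli time and 8 h arrays had 2 spots read, which were 1.05 and 3.50 on the E. coli time array. With the trend removed PLA2G15 had 0.08, 1.88 and 1.76 on the early E. coli, early LPS and E. coli time arrays. At 4 h and 8 h it then had 0.99 and 1.25. CBR4, a carbonyl reductase on a clone as dim, had 1.96 ± 0.68 on the early E. coli array and 1.35 ± 0.61 on the early LPS array. Dim spots tended to positive ratios on each array, and with the trend removed CBR4 stayed past 2-fold on both, at 1.31 and 1.13. CBR4 had 1.03 ± 0.39 over 2 spots on the E. coli time array, and at 4 h and 8 h 0.62 and 1.203 from 1 spot each. These 3 values were within 2-fold with the trend removed, at 0.47, -0.13 and 0.57. AKR1B10, an aldo-keto reductase on a dimmer clone still, had 1.72 on the E. coli time array and 2.17 on the 8 h array, each from 1 spot. AKR1B1, also listed under prostanoid synthesis, had a brighter clone, at 1.46 ± 0.25, and was within 2-fold by its mean on all 5 arrays. Its means ran from -0.84 ± 1.54 on the 4 h array, where its spots differed in sign, to 0.52 ± 0.04 on the E. coli time array.

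In the lipoxygenase branch upstream of LTA4H, the clones of ALOX5, the 5-lipoxygenase, and ALOX5AP, its activating protein, gave intensities near 0 at LPS 2 h. ALOX5 had 0.02 ± 0.03 and ALOX5AP 0.03 ± 0.14, with 1 spot of each below 0. ALOX5 had 1.24 ± 1.36 on the early LPS array with spots from 0.19 to 2.78, and on the other arrays its spots differed in sign. ALOX5AP had 1.84 ± 1.21 over 4 spots on the E. coli time array and -1.43 ± 1.81 over 5 spots on the 8 h array, where 4 were negative. COTL1, a protein that binds 5-lipoxygenase and actin, had -1.38 ± 1.15 on the 8 h array with all spots negative, the same sign as LTA4H. ABCC1, an exporter of leukotriene C4, had 0.95 ± 0.17 on the early E. coli array and -1.45 ± 1.05 on the early LPS array, the sign pattern of PTGS2 on these arrays. On the 4 h array ABCC1 had -0.71 ± 0.41 with all spots negative, the opposite sign to PTGS2. ABCC4, which exports prostaglandins, had 1.79 over 2 spots on the early E. coli array and -0.35 ± 0.38 on the early LPS array. Its clone was dim, at an intensity of 0.17 ± 0.03, and removal of the brightness trend left 1.35 and -0.55. SLCO2B1, an organic anion carrier, and MGST1, a microsomal glutathione transferase, had 1.94 ± 1.43 and 1.40 ± 0.86 on the E. coli time array with all spots positive.

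CMKLR1, a receptor for chemerin and resolvin E1, had the opposite pattern to PTGS2 at 1 h. It had -0.86 ± 0.21 on the early E. coli array and 2.00 ± 0.35 on the early LPS array, with 1.61 as its lowest spot there. On the 4 h array it had -1.29 ± 0.53, again opposite to PTGS2, and on the 8 h array its spots differed in sign. The CMKLR1 clone was dim, at an intensity of 0.20 ± 0.01. With the brightness trend removed it had -1.25, 1.81 and -1.84 on the early E. coli, early LPS and 4 h arrays.

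Of the other annexins, none had the pattern of ANXA1 on both later arrays. ANXA2, which forms a complex with S100A10 at membranes, had -0.67 ± 0.31 on the 4 h array with all 6 spots negative and 1.37 ± 1.26 on the 8 h array with all 6 positive. ANXA5, a binder of phosphatidylserine, had 0.22 ± 1.66 at 4 h, -0.71 ± 0.39 at 8 h and 1.56 ± 0.45 on the E. coli time array. S100A6, a calcium-binding protein, had 1.38 ± 0.58 over 2 spots on the E. coli time array. ANXA11 had 1.24 ± 2.22 at 4 h and 0.99 ± 1.13 at 8 h, and the spots of ANXA6 on both arrays ran from below -3 to above 2. The glutathione transferases GSTA3 and GSTO2, of the enzyme superfamily of HPGDS, had -1.24 ± 0.32 and -1.57 ± 0.37 on the 8 h array with all spots negative, against 0.015 for HPGDS. GSTA3 also had -1.02 ± 0.34 on the 4 h array. With the brightness trend removed GSTA3 was within 2-fold, at -0.46 at 4 h and -0.95 at 8 h, while GSTO2 had -1.33 at 8 h.

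**Figure D5:**
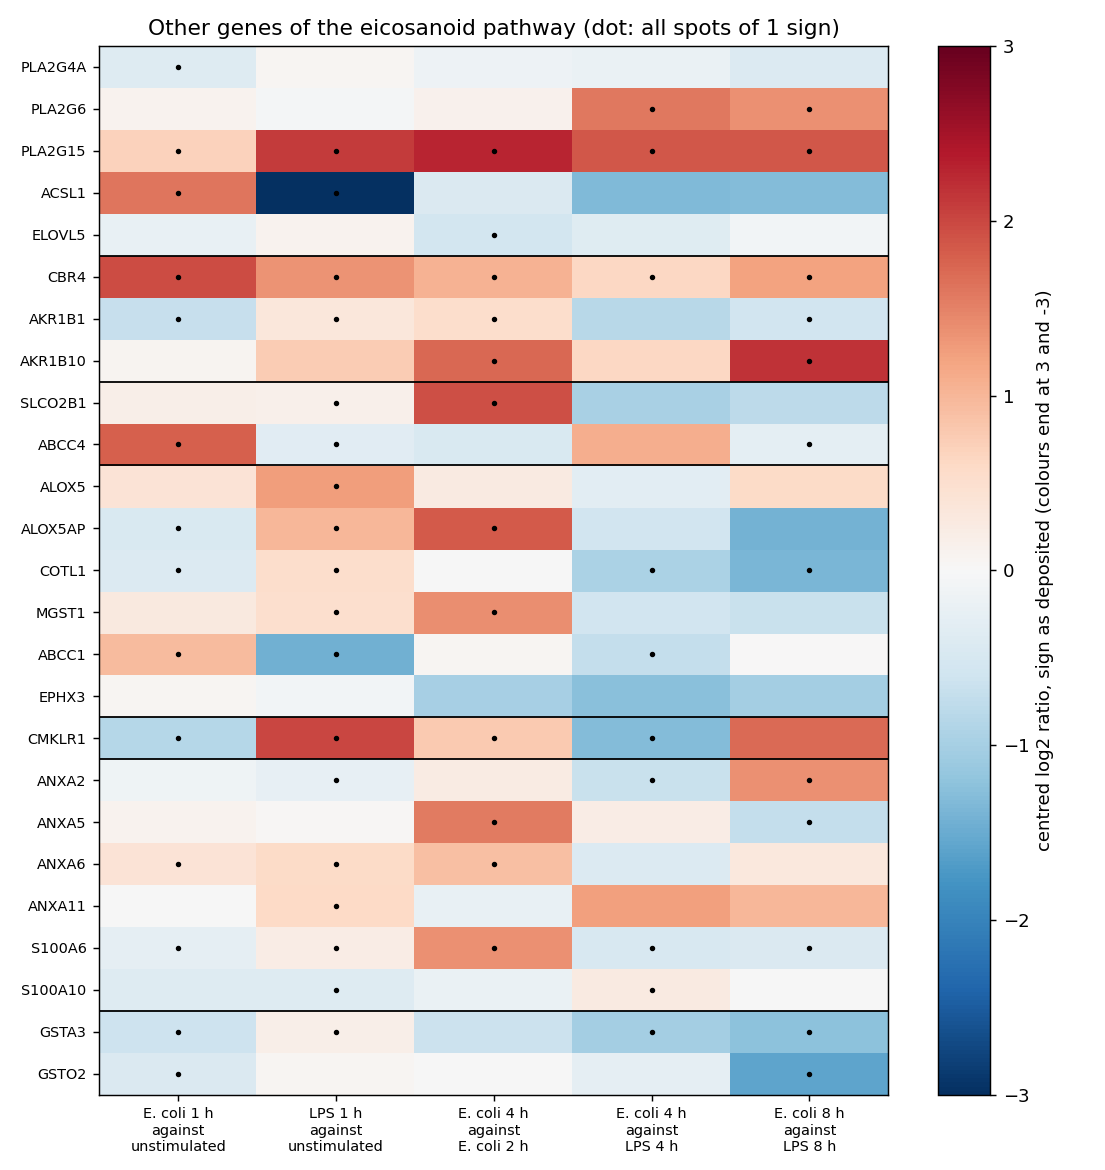
Centred log2 ratio (colour, sign as deposited, with colours ending at 3 and -3) of 25 other genes of the eicosanoid pathway (rows, grouped from fatty acid handling at the top to glutathione transferases at the bottom) on the 5 ratio arrays (columns), with a dot where all spots of the gene had 1 sign. ACSL1 has the darkest negative colour, at -3.62 on the early LPS array, and CMKLR1 the opposite sign there at 2.00.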

How the data were processed

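The authors deposited a table of 14718 spots with 1 column per array. Deposited values of 2-channel arrays were read as log2 ratios, with base 2 assumed. The LPS 2 h column was taken as a deposited intensity on a linear scale, with 204 values below 0. No source used here states the dyes, numerator, background correction, normalization or any filter. Groups, with 1 array each, came from the labels.

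Genes came from a probe table with an annotation of 2007, which gave 1 gene to 9066 spots, with symbols updated by identifier through RefSeq (GRCg7b, 2228 of 2255 identifiers matched). Some listed symbols were matched through a synonym and carry the table's symbol. Each array was centred on its median, spots were averaged in a clone and clones in a gene. Spots read per ratio array numbered from 13310 to 14361, array medians before centring ran from -0.11 to 0.49, and the median SD of a clone's 3 spots ran from 0.19 to 0.60. Precision is limited by the number of arrays, 1 per comparison.

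The 4 genes and the lists were chosen with earlier results of these data known. Other pathway genes were named when past 2-fold with all spots of 1 sign, or when acting at the same step as 1 of the 4. Neighbours were the 3 nearest genes. CD3D, S100A12 and the values of IL1B, IL8L1, IL6 and CCL20 were singled out after their values were seen. Averaging and counting were tested on simulated data. Software was matplotlib 3.10.9, statsmodels 0.14.6, pandas 2.3.3 and numpy 2.4.6 under Python 3.11.15. Alternatives were no centring, removal of a lowess trend on LPS 2 h intensity rank (span 0.3), medians over spots and 1 spread for all arrays. Each spot was also left out in turn. List counts were repeated without dim genes, and with only genes with spots of 1 sign.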

Additional observations from a re-analysis of the deposited data

How the results depend on the processing

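No paired analysis was possible because each comparison had 1 array. Medians over spots and leaving out any 1 spot moved no value of the 4 genes by more than its spot SD. Such moves stay within the spot SD by arithmetic, so this count could not show whether a value was stable. Leaving out 1 spot gave PTGS2 -0.90 to 0.43 on the E. coli time array and 1.87 to 5.93 in intensity. For HPGDS on the 4 h array it gave 0.88 to 3.36. Values that moved by more than their spot SD were these, and the cause was not tested. Without centring, HPGDS had 0.24 and LTA4H and ANXA1 0.36 and 0.75 on the E. coli time array, and LTA4H and ANXA1 0.77 and 0.53 on the early LPS array. With the brightness trend removed, PTGS2 had 2.04 at 4 h and 0.61 at 8 h, LTA4H 0.23, 0.71 and 0.27 and ANXA1 -0.16, 0.40 and 0.56 on the early E. coli, early LPS and E. coli time arrays, HPGDS -0.66 on the last and ANXA1 -1.05 on the 4 h array. With the arrays scaled to 1 spread, PTGS2 had -11.2 on the early LPS array and 1.12 on the 4 h array, LTA4H, HPGDS and ANXA1 0.98, 0.98 and 0.50 on the early LPS array, and ANXA1 -0.51 on the early E. coli array. No value past 2-fold changed sign. On the early E. coli array PTGS2 and HPGDS passed 2-fold under some settings, in moves smaller than their spot SD. With the arrays scaled to 1 spread they had 1.16 and 1.30 there, and by the median over spots HPGDS had 1.21. Leaving out 1 spot gave up to 1.01 for PTGS2 and up to 1.28 for HPGDS on that array. Of the 25 other pathway genes, 6 were past 2-fold on the early E. coli array and 9 on the 8 h array with the trend removed. Without the dimmest 25% of genes the counts were 1, 2, 4, 5 and 7 in the order early E. coli, early LPS, E. coli time, 4 h and 8 h array. That filter also took dim pathway genes out, so these counts are not of 25. With spots of 1 sign required the count was 4 on the 4 h array. Shares of all genes past 2-fold were not computed for these settings, so the counts have no background beside them. No background values were used here, so what signal over background limits was not assessed.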
